A study of Homo sapiens with 4 samples.

Results

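A set of 8 miRNA names whose reads may come from fragments of other RNAs (small nuclear RNA, tRNA or ribosomal RNA) were followed in 4 small RNA libraries. They are hsa-miR-1246, hsa-miR-1290, hsa-miR-4792, hsa-miR-4449, hsa-miR-4508, hsa-miR-1260a, hsa-miR-1260b and hsa-miR-4286, 8 of the 1882 miRNA names listed in all 4 libraries, and are written without the species prefix from here on. They were taken by name from a list that was drawn up with sphere/parental ratios of these same libraries known, so those ratios are given as a description and carry no test. The libraries came from HT29 and HCT15, established human colorectal adenocarcinoma lines. HT29 spheres and HCT15 spheres were grown without serum in DMEM-F12 to which N2 Plus supplement, the growth factors EGF and bFGF (10 ng/ml of each) and penicillin-streptomycin (1%) were added, and the submitters call them sphere-derived cancer stem cells. HT29 parental cells were grown in DMEM and HCT15 parental cells in RPMI, each with 10% fetal bovine serum and 1% penicillin-streptomycin. Growth as spheres, the medium and the absence of serum thus changed together and cannot be told apart. Each line and culture had 1 library, made from 1 ug of total RNA, and no library had a replicate.

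A miRNA is cut by Drosha and Dicer from a hairpin precursor and loaded into an Argonaute protein, which it guides to messenger RNAs by its seed, bases 2 to 8. Small RNA sequencing records any short RNA with suitable ends, so a fragment of an abundant structured RNA that reads the same as a listed miRNA is counted under the miRNA's name. U2, the small nuclear RNA that recognises the intron branch point in the spliceosome, and tRNAs, which all end in CCA, are such RNAs. miR-1246 and miR-1290 are known as RNAs reported in serum and extracellular vesicles of patients with several cancers, and miR-1260 as a name whose sequence resembles a tRNA 3′ end.

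Mature sequences from RefSeq (GRCh38.p14) were matched by name for 5 of the 8, and are shown because they sort these names by likeness. Capitals mark the seed.
miR-1246: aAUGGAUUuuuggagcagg
miR-1290: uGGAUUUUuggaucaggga
miR-1260a: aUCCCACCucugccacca
miR-1260b: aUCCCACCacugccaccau
miR-4449: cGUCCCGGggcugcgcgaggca
miR-1246 and miR-1290 shared an unbroken run of 12 bases, offset by their start, and so had different seeds. miR-1260a and miR-1260b shared their seed, and no other listed name with a RefSeq sequence had it. Over the 18 bases of miR-1260a the pair differed by 1 base, U9A, counted from the 5′ end with the base of miR-1260a first, and miR-1260b had 1 further base at its 3′ end. miR-4449 shared no run longer than 4 bases with any of the other 4. Its mature sequence was 81.8% G and C, above 98.0% of the 1575 listed names that have a RefSeq sequence, against 42.1% for both miR-1246 and miR-1290, which exceeded 28.9%.

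The 5 sequences were searched in 5722 annotated small RNA transcripts of GENCODE 29, which hold, among others, small nuclear, nucleolar, mitochondrial and ribosomal RNAs but no nuclear tRNA. miR-1246 was found letter for letter in 19 of them, all of U2 type, among 90 U2-type transcripts. For miR-1290 there was no exact match, and 23 transcripts, again all of U2 type, differed from it by 1 base. In the U2 gene RNU2-1 (GRCh38, chr17:43233855-43233889, minus strand), bases 89 to 123 of the 191-base RNA read as follows, with the miR-1246 match in capitals.
RNU2-1: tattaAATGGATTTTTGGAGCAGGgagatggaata
The match covers bases 94 to 112 of U2, and the window of miR-1290 covers bases 96 to 114, so that both lie on the same 17 bases. Against this window miR-1290 has the single difference U13G, counted from its 5′ end with the base of miR-1290 first. The 73-base MIR1246 hairpin and U2 shared no run longer than the 19 bases of the mature sequence, so a read lying within those 19 bases has the same letters from either RNA. Of the 1575 listed names with a sequence, 6 (0.381%) occurred letter for letter in these small RNA transcripts. miR-1260a, miR-1260b and miR-4449 had no match there with up to 1 difference, which says only that these letters are not in that set. Another RNA with the same letters was thus found for miR-1246 and, but for 1 base, for miR-1290, while nuclear tRNAs and the ribosomal RNA precursor were not searched.

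On GRCh38 (GENCODE 29), none of the 8 hairpins overlapped an annotated small RNA of its strand. MIR1246 (chromosome 2, 176600980 to 176601052, minus strand) and MIR4508 (chromosome 15, 23562062 to 23562131, minus strand) lay in no annotated gene. MIR1290 (chromosome 1, 18897071 to 18897148, minus strand) was intronic to ALDH4A1, a mitochondrial aldehyde dehydrogenase of proline breakdown, and to AL080251.1. MIR4449 (chromosome 4, 52712682 to 52712747, plus strand) lay in an intron of the long noncoding RNA DANCR. The remaining 4 lay opposite a gene of the other strand. These were MIR4792 (chromosome 3, 24521362 to 24521435, minus strand) opposite an intron of THRB-AS1, MIR1260A (chromosome 14, 77266218 to 77266290, plus strand) opposite an exon of NGB, MIR1260B (chromosome 11, 96341438 to 96341526, plus strand) opposite an exon of MAML2 and MIR4286 (chromosome 8, 10666978 to 10667070, plus strand) opposite an intron of RP1L1. Each hairpin thus had its own locus, and no 2 of the 8 are a genomic cluster.

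HT29 libraries held 12646638 reads in spheres and 5754896 in parental cells over the shared names. The HCT15 files give RPKM, whose low values were taken to correspond to about 2316732 reads in spheres and 3177050 in parental cells. The sphere count rests on taking the commonest low value there as 2 reads, and would be lower were it 1 read. Levels are in CPM, reads of a name per 1000000 reads of the shared names in its library, and the levels of the 2 lines come from separately normalized files. The 95% intervals hold counting error alone, since the reads carry no molecular identifiers and no culture was repeated. A count of 0 allows up to 3 reads, or 0.237 CPM in HT29 spheres, 0.521 in HT29 parental cells, 1.29 in HCT15 spheres and 0.944 in HCT15 parental cells. Of 6 miRNAs of colorectal epithelium, summed levels were 223985 CPM in HT29 spheres and 160055 in HT29 parental cells, and 12690 CPM in HCT15 spheres and 11387 in HCT15 parental cells. The HT29 sums were mostly miR-192-5p, at 159703 CPM in spheres and 92947 in parental cells. In HT29 spheres miR-215, miR-200c-3p and miR-141-3p also had more CPM, but miR-194-5p and miR-200b-3p had fewer. Of 3 stromal miRNAs the summed levels did not exceed 20.5 CPM in any library. Of 4 blood-cell miRNAs they were 372 and 386 CPM in HT29 spheres and parental cells, nearly all miR-142-3p, and at most 2.23 in HCT15, while miR-223-3p, which marks myeloid cells, was at 0 in all 4 libraries. These libraries are bulk RNA, in which fewer cells of a type and less RNA per cell cannot be told apart.

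The 8 names took a larger share of reads in spheres than in parental cells of both lines. In HT29 the share was 0.293% in spheres (Wilson interval 0.290 to 0.296) and 0.0761% in parental cells (0.0739 to 0.0784), a 3.85-fold difference. In HCT15 it was 0.694% in spheres (0.684 to 0.705) and 0.249% in parental cells (0.244 to 0.255), a 2.79-fold difference. A single name carried most of the sphere reads in each line, but not the same one. miR-1246 held 66.4% of the 8 names' reads in HT29 spheres, and miR-4792 held 79.8% of them in HCT15 spheres. Without these 2 names, chosen after their values were seen, the other 6 took 0.0557% of reads in HT29 spheres and 0.0456% in parental cells, and 0.0891% in HCT15 spheres and 0.0921% in parental cells.

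**Figure D1:**
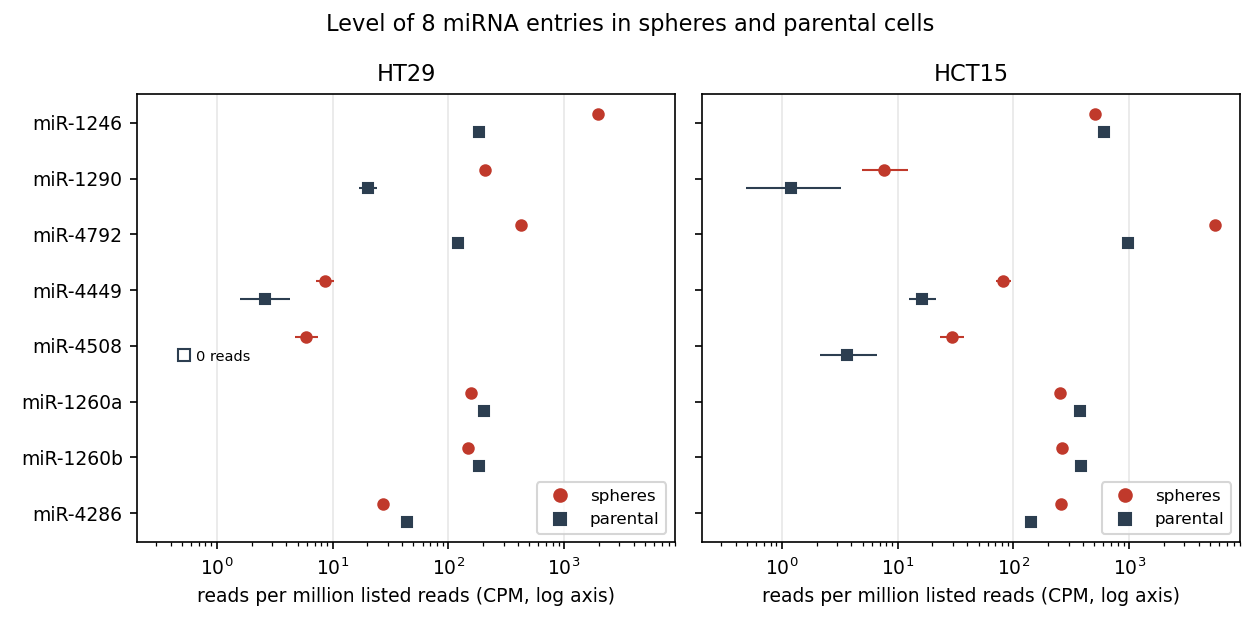
Level of each of the 8 names in CPM (log axis) in HT29 on the left and HCT15 on the right, with spheres as red circles drawn above parental cells as dark squares, and 95% counting intervals as bars. miR-1246 stands at 1945 CPM in HT29 spheres and 183 in HT29 parental cells but at 509.9 and 601 in those of HCT15; the open square marks 0 reads, drawn at the level of 3 reads.

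Ratios are spheres over parental cells on the log2 scale, after TMM scaling over the 4 libraries and with a prior count of 2 reads. At least 2-fold higher in HT29 spheres were 5 of the 8, namely miR-1246, miR-1290, miR-4792, miR-4449 and miR-4508, and none was 2-fold lower. At least 2-fold higher in HCT15 spheres were also 5, namely miR-1290, miR-4792, miR-4449, miR-4508 and miR-4286, and again none was 2-fold lower. Thus 4 names, miR-1290, miR-4792, miR-4449 and miR-4508, were 2-fold higher in both lines. The median ratio of the 8 was 2.29 in HT29 and 1.81 in HCT15. Among all names whose mean in the line's libraries reached 10 CPM, 12.5% of 352 were 2-fold higher and 18.5% 2-fold lower in HT29, with a median ratio of -0.07. In HCT15, 8.92% of 325 were higher and 5.85% lower, with a median of 0.05. The balance of these calls depended on the scaling. In HT29 the 44 higher and 65 lower names became 16 and 127 with total counts and 59 and 50 with the upper quartile, and in HCT15 the 29 higher and 19 lower became 19 and 51 with total counts and 40 and 9 with the upper quartile. Of 252 names at that level in both lines, 5 (1.98%) were 2-fold higher in both. Of the 8, 5 reached that level in both lines, and 1 of these, miR-4792, was 2-fold higher in both. Of the 8, 6 passed that minimum in HT29, with a median ratio of 1.32, and 3 of them were 2-fold higher. In HCT15, 7 passed, with a median ratio of 1.22, and 4 of them were 2-fold higher. At a mean of at least 50 CPM the medians were 2.38 over 5 names in HT29 and 0.12 over 5 in HCT15. All names at that level had medians of 0.01 over 221 in HT29 and 0.09 over 200 in HCT15. Since the 8 names were listed with these ratios known, the counts describe them and show nothing beyond the choice.

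The 2 names that read like U2 moved together in HT29 and apart in HCT15. miR-1246 was at 1945 CPM in HT29 spheres and 183 in HT29 parental cells (24592 and 1053 reads), a log2 ratio of 3.99 (interval 3.90 to 4.08), or 15.9-fold. miR-1290 was at 208 CPM in HT29 spheres and 20.2 in HT29 parental cells (2634 and 116 reads), a ratio of 3.93 (3.68 to 4.23), or 15.2-fold. Among names at 10 CPM or more in HT29, 99.7% had a lower ratio than miR-1246 and 99.4% a lower one than miR-1290.

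In HCT15, miR-1246 had nearly the same level in both cultures. It was at 509.9 CPM in spheres and 601 in parental cells, and the deposited RPKM were 311 and 309. Its ratio was 0.12 (0.01 to 0.22), and the choice of scaling turned its sign, from -0.24 with total counts to 0.37 with the upper quartile. miR-1290 was at 7.64 CPM in HCT15 spheres and 1.20 in HCT15 parental cells, about 18 and 4 reads, with a ratio of 2.40 (1.38 to 5.00). Both cultures of HCT15 thus held little miR-1290, and its ratio there rests on the 4 reads of parental cells.

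Within a library the reads of the pair can be set against each other without any scaling between libraries. miR-1246 had 9.34 reads for each read of miR-1290 in HT29 spheres (8.97 to 9.72) and 9.08 in HT29 parental cells (7.49 to 11.1). The HT29 libraries did not differ in this measure beyond counting error. The same measure was 66.8 in HCT15 spheres (41.3 to 111) and 499 in HCT15 parental cells (186 to 1753), and these intervals overlap neither each other nor those of HT29. The measure thus differed between the HCT15 cultures beyond counting error, on few reads of miR-1290. From which RNA the reads of either name came was not tested.

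**Figure D2:**
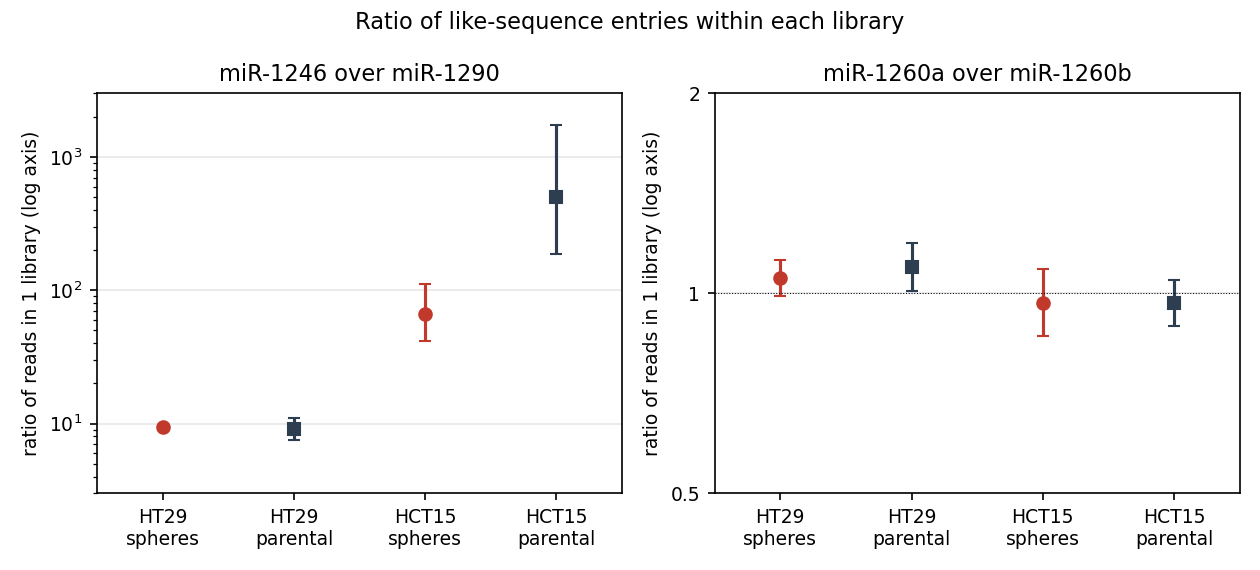
Reads of miR-1246 over miR-1290 (left) and of miR-1260a over miR-1260b (right) within each library, on log axes, with spheres as red circles, parental cells as dark squares and 95% counting intervals as bars. The left ratio is 9.34 and 9.08 in HT29 spheres and parental cells and 66.8 and 499 in those of HCT15, whereas the right ratio stays between 0.966 and 1.10 in all 4 libraries.

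The pair with a shared seed, miR-1260a, whose last bases are CCA as in a tRNA, and miR-1260b, which has 1 further base, were near their parental level in both lines and near each other in every library. miR-1260a was at 157 CPM in HT29 spheres and 203 in HT29 parental cells, and at 253 CPM in HCT15 spheres and 373 in HCT15 parental cells. miR-1260b was at 149 CPM in HT29 spheres and 186 in HT29 parental cells, and at 261 CPM in HCT15 spheres and 386 in HCT15 parental cells. Both had fewer CPM in spheres of both lines.

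After TMM scaling the ratios of miR-1260a were 0.21 in HT29 (0.10 to 0.31) and -0.21 in HCT15 (-0.35 to -0.06), and those of miR-1260b 0.26 (0.15 to 0.37) and -0.21 (-0.35 to -0.07). All 4 changed sign with the scaling, from -0.37 to 0.43 for miR-1260a in HT29 and from -0.56 to 0.05 in HCT15, so no direction can be given. Reads of miR-1260a per read of miR-1260b were 1.05 in HT29 spheres (0.990 to 1.12) and 1.10 in HT29 parental cells (1.01 to 1.19). They were 0.968 in HCT15 spheres (0.863 to 1.09) and 0.966 in HCT15 parental cells (0.892 to 1.05), or 0.986 and 0.984 after correction for the mature length. With 1 base between them over 18, their counts could be split or shared by the authors' counting, and the 2 names may not be independent of each other.

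miR-4792 was higher in spheres of both lines by a similar factor and was the most abundant of the 8 by reads in HCT15. It was at 428 CPM in HT29 spheres and 122 in HT29 parental cells (5416 and 704 reads), with a ratio of 2.38 (2.27 to 2.50). It was at 5543 CPM in HCT15 spheres and 967 in HCT15 parental cells, with a ratio of 2.87 (2.81 to 2.93). By reads it ranked 27 of the 1882 names in HCT15 spheres and 72 in HCT15 parental cells, against 99 in HT29 spheres and 182 in HT29 parental cells. Its relation to miR-1246 turned round between the lines. Reads of miR-4792 per read of miR-1246 were 0.220 in HT29 spheres and 0.669 in HT29 parental cells, but 10.9 in HCT15 spheres and 1.61 in HCT15 parental cells.

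miR-4449 and miR-4508 followed the direction of miR-4792 at far lower levels. miR-4449 was at 8.62 CPM in HT29 spheres and 2.61 in HT29 parental cells (109 and 15 reads), with a ratio of 2.19 (1.52 to 3.19). It was at 82.0 CPM in HCT15 spheres and 16.4 in HCT15 parental cells (about 190 and 52 reads), with a ratio of 2.62 (2.23 to 3.15). miR-4508 had 75 reads in HT29 spheres and 0 in HT29 parental cells, at least 17.0-fold higher after TMM scaling and at least 11.4-fold with total counts, against a floor of 3 reads. It was at 29.4 CPM in HCT15 spheres and 3.62 in HCT15 parental cells (about 68 and 12 reads), with a ratio of 3.12 (2.41 to 4.33). In each line the spheres held more of both names, and all 3 names were lower in HT29 than in HCT15 in CPM of the same culture.

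miR-4286 differed between cultures in HCT15 and not detectably in HT29. It was at 258 CPM in HCT15 spheres and 141 in HCT15 parental cells (about 598 and 449 reads), with a ratio of 1.22 (1.04 to 1.40). With total counts this ratio was 0.87 and no longer 2-fold. In HT29 it was at 27.5 CPM in spheres and 44.1 in parental cells (348 and 254 reads), with a ratio of -0.10 (-0.34 to 0.14) whose sign changed with the scaling.

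**Figure D3:**
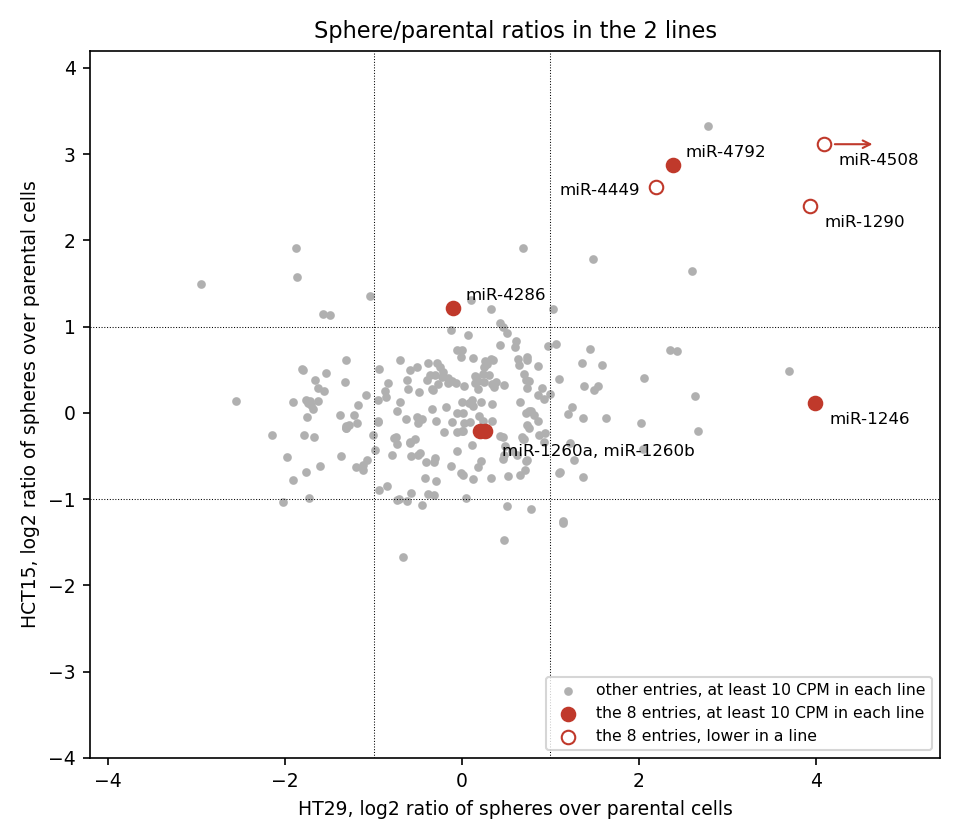
Log2 ratio of spheres over parental cells in HT29 (x axis) and in HCT15 (y axis) for names at 10 CPM or more in each line (grey) and for the 8 names (red; open where a line is below that level), with dotted lines at 2-fold; the arrow marks the lower bound of miR-4508. miR-4792, miR-4449, miR-4508 and miR-1290 lie beyond 2-fold in both lines, and miR-1246 lies at 3.99 in HT29 and 0.12 in HCT15.

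**Figure D4:**
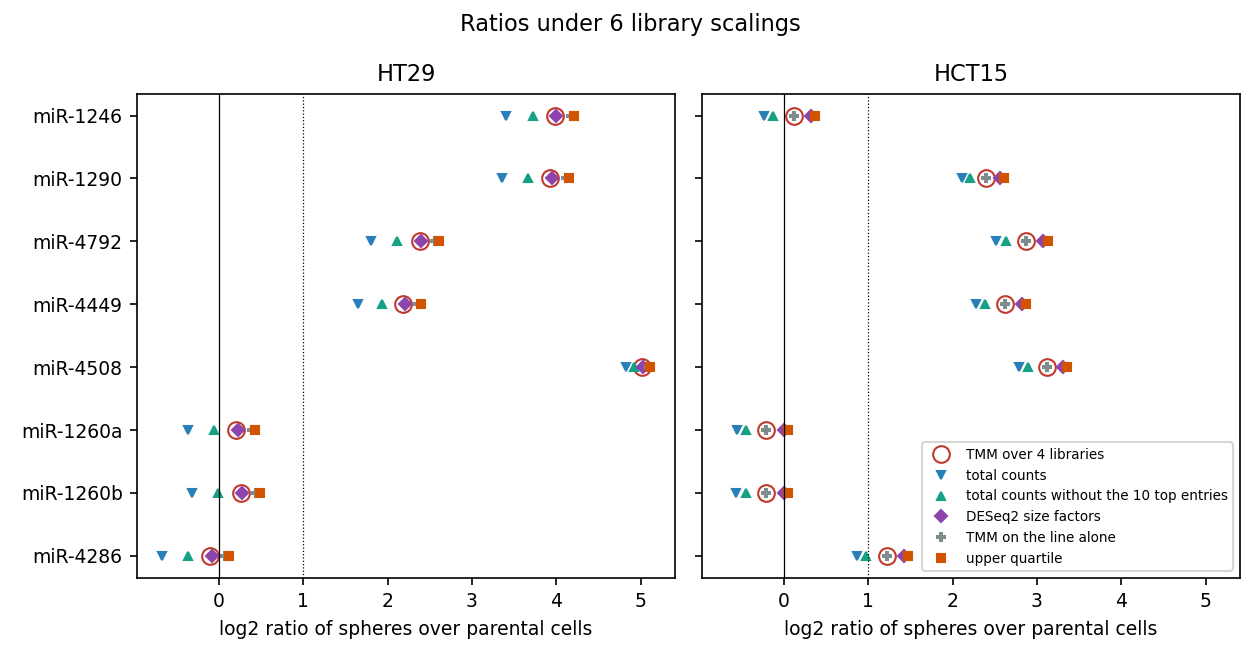
Log2 ratio of spheres over parental cells for the 8 names in HT29 (left) and HCT15 (right) under 6 library scalings, with a solid line at 0 and a dotted line at 2-fold. The ratios of miR-1260a, miR-1260b, miR-4286 in HT29 and miR-1246 in HCT15 fall on both sides of 0. All are drawn with a prior count of 2 reads, at which miR-4508 in HT29, with 0 parental reads, runs from 4.82 to 5.11.

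Whether the 8 moved alike was described by the Euclidean distance of log2(CPM + 1), centred on each name's mean over the 4 libraries, in which a small distance means a like profile. The median over the 28 pairs was 3.28, ranging from 0.156 to 7.35, against 3.46 over all pairs of the 368 names averaging 10 CPM or more across the libraries. The closest pair was miR-1260a and miR-1260b at 0.156, closer than all but 0.0666% of those pairs. Next came miR-4792 and miR-4449 at 0.722, with 3.04% of pairs closer, then miR-4449 and miR-4508 at 1.15 and miR-4792 and miR-4508 at 1.36, with 9.23% and 13.2% of pairs closer. The miR-4508 ratio in HT29, at least 4.09, was nevertheless above those of the other 2. With a mean of 9.75 CPM, miR-4508 was below the level of the names behind these percentages, and the added 1 CPM shrinks differences at low levels. miR-1246 and miR-1290, which share the U2 window, were 4.13 apart, with 59.0% of all pairs closer. The farthest pair was miR-1290 and miR-4792. The 8 thus had no common profile over the 4 libraries, while the miR-1260 pair lay almost on top of each other and miR-4792 and miR-4449 were the next closest. These distances rest on 4 libraries and contain the difference between the lines as well as that between the cultures.

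By the same measure the nearest name outside the 8 was miR-146a-5p for miR-4449, at a distance of 0.759. miR-146a-5p, which NF-kB signalling induces, had ratios of 2.78 in HT29 and 3.33 in HCT15. For miR-4792 it was miR-146a-3p, the other strand of that hairpin, at 0.822, with ratios of 1.54 and 3.27. That strand was at 2.06 CPM in HT29 spheres and 0.869 in HT29 parental cells, levels at which the added 1 CPM shrinks differences. For miR-1246 the nearest was miR-1307-5p at 1.77, and for miR-1290 miR-33b-5p at 2.30. miR-1260a was nearest to miR-331-5p at 0.321, miR-1260b to miR-769-5p at 0.402 and miR-4286 to miR-10a-5p at 0.346. miR-4508, with a mean of 9.75 CPM, was below the level set for this search.

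Other names were grouped by name, sequence or annotation rather than by their values, leaving out the 8. Names numbered 1000 or above, which were catalogued late, had a median ratio of 0.06 in HT29 over 43 names and -0.47 in HCT15 over 49 names at 10 CPM or more. Of these, 7 (16.3%) were 2-fold higher and 4 (9.30%) lower in HT29 spheres, against 12.5% and 18.5% of all names at that level. In HCT15 spheres 5 (10.2%) were higher and 7 (14.3%) lower, against 8.92% and 5.85% of all names. Names with a mature sequence of at least 70% G and C had medians of 0.83 over 8 names and 0.18 over 16 names, with 3 higher and 2 lower in each line. The medians of the late names in HT29 and of the G and C rich names in HCT15 changed sign with the scaling. At a mean of at least 50 CPM the medians of the G and C rich names were -0.06 in HT29 over 5 names and -0.17 in HCT15 over 6, so neither line gives them a direction. With 5 of the 8 matched to a sequence, no summary of base composition over the 8 is given.

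A written list held further names known to overlap other RNAs, 19 of which were in all 4 files. It was drawn up with earlier results of these data known. Of the names of this list above 3 reads in either library of HT29, 3 of 14 were 2-fold higher and 5 lower. Over all 832 names at that level, 18% were higher and 17.2% lower. In HCT15, 5 of 15 were higher and 2 lower, against 7.4% and 29.6% of 635. A name could enter these counts through only the culture where it was higher, so they are a description. Of names overlapping ribosomal RNA or its spacers, 3 of 4 were 2-fold higher and none 2-fold lower in HT29. One of these 3, miR-663a, was at 0.554 CPM in spheres and 0 in parental cells, where 0 allows up to 0.521. In HCT15, 3 of 6 were higher and 1, miR-663b, lower. miR-663b was at 0 in HCT15 spheres, which allows up to 1.29 CPM, and at 0.976 in parental cells, so it has no clear direction. Summed levels of this kind were 9.25 CPM in HT29 spheres and 3.13 in parental cells, and 88.7 CPM in HCT15 spheres and 46.8 in parental cells. miR-3648 of this kind was at 2.53 CPM in HT29 spheres and 0.348 in parental cells, and at 26.8 CPM in HCT15 spheres and 5.59 in parental cells. miR-3687, also of this kind, went the other way in HCT15, at 7.53 CPM in spheres and 16.8 in parental cells. In HT29 it was at 2.29 CPM in spheres and 2.09 in parental cells.

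Differences between the kinds of overlapped RNA were not tested. Over all names above 3 reads in either library of HT29, 18% were 2-fold higher and 17.2% lower. In HCT15 these shares were 7.4% and 29.6%. Of names overlapping small nucleolar RNAs, which guide chemical modification of ribosomal RNA, 0 of 5 were 2-fold higher and 3 lower in HT29, with a summed level of 19.9 CPM in spheres and 75.4 in parental cells. In HCT15, 2 of 5 were higher and 1 lower, with 44.2 CPM in spheres and 46.2 in parental cells. miR-1248, which lies in the small nucleolar RNA gene SNORA81, was at 0.791 CPM in HT29 spheres and 15.6 in parental cells, and at 1.82 CPM in HCT15 spheres and 9.98 in parental cells. The others of this kind above 3 reads did not all fall in HCT15. There miR-3651 and miR-3653 had ratios of 1.12 and 1.39, miR-1291 0.15 and miR-3607-3p -0.91. Of the names overlapping mitochondrial RNA, 0 of 3 were 2-fold higher and 2 lower in HT29, and 0 of 2 were 2-fold higher or lower in HCT15, with summed levels of 10.3 CPM in HT29 spheres and 49.5 in parental cells, and 11.4 CPM in HCT15 spheres and 23.4 in parental cells. miR-4485, a name known to overlap mitochondrial ribosomal RNA, was at 6.33 CPM in HT29 spheres and 36.3 in parental cells, and at 8.81 CPM in HCT15 spheres and 19.9 in parental cells. The other one of these above 3 reads in both lines, miR-4461, had ratios of 0.51 in HT29 and 0.06 in HCT15. miR-4454, of tRNA type, was at 156 CPM in HT29 spheres and 173 in parental cells, and at 243 CPM in HCT15 spheres and 179.6 in parental cells, with ratios of 0.43 and 0.79.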

How the data were processed

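Per the labels' protocols, libraries came from a TruSeq Small RNA kit. As the file headers state, the authors deposited unscaled counts for each mature name in HT29 but RPKM in HCT15, both against miRBase release 19. The submitters' processing notes name hg19. No source used here gives the aligner, the trimming or the treatment of reads with several matches. In HCT15, 1 read was taken as 0.162 in parental cells and as 0.263 in spheres, where the commonest low value, 0.527, was taken as 2 reads. With length corrected, 4 values lay at 1 read and 35 at 2 in HCT15 spheres, against 103 and 51 in parental cells. Were 0.527 the value of 1 read, sphere reads would be fewer and HCT15 intervals wider, which was not run. The value of 1 read grew with mature length, in parental cells from 0.157 at 20 to 0.164 at 23 nucleotides. After length correction, 66.4% and 66.9% of low values in HCT15 parental cells and spheres lay within 0.02 of a whole read, so reads there are approximate. Shared length factors cancel in a ratio.

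Scaling used TMM from edgeR 4.0.16 (R 4.3.3) over the 1882 shared names; DESeq2 1.42.0 size factors, total counts, the upper quartile and other prior counts were alternatives. Intervals were exact conditional binomial (ratios) or Wilson (shares), from scipy 1.17.1 in Python 3.11.15, and the ratio code was tested on simulated data. With 1 library per group, no difference was tested. Sequences came from RefSeq by name and GENCODE 29. The 8 names and all lists were chosen with earlier results of these data known. The text names the 8, the nearest name outside them at 10 CPM, up to 4 of each other group and fixed cell type markers. miR-3648, miR-3687, miR-663a, miR-663b, miR-1248, miR-1291, miR-3651, miR-3653, miR-3607-3p, miR-4485 and miR-4461 were chosen among list members after their values were seen.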

Additional observations from a re-analysis of the deposited data

Results flagged for a closer look

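miR-1260a and miR-1260b were picked out because the lines moved in opposite directions with counting intervals that exclude 0. The log2 ratio of miR-1260a was 0.21 in HT29 and -0.21 in HCT15, and that of miR-1260b was 0.26 in HT29 and -0.21 in HCT15. With 1 library per culture the difference between the lines was not tested. It did not hold with total counts, where all 4 ratios were negative, from -0.56 to -0.32. Nor did it hold without the 10 most abundant names, where all 4 were negative, or with the upper quartile, where all 4 were positive. With DESeq2 size factors the HCT15 ratios were 0.0005 for miR-1260a and -0.003 for miR-1260b.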

How the results depend on the processing

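No paired analysis was possible because each line and culture had 1 library and the labels give no replicate numbers. The 2-fold counts of the 8 names stayed at 5 higher and 0 lower in HT29 under every alternative run, and in HCT15 at 5 and 0 except under total counts and after dropping the 10 most abundant names from the total, where 4 were higher. The median of the 8 in HT29 (2.29) was 1.73 with total counts, 2.50 with the upper quartile, 2.46 with TMM on the line alone, 2.03 without the 10 most abundant names and 2.10 with a prior count of 10. In HCT15 (1.81) it was 1.49 with total counts, 1.99 with DESeq2 size factors, 2.04 with the upper quartile, 1.59 without the 10 most abundant names, 1.94 and 1.30 with prior counts of 0.5 and 10, and 2.40 with the miR-1260 pair summed. Over every name in the file, the share of the 8 in HT29 spheres was 0.2896%. Total counts shifted all ratios by -0.58 in HT29 and -0.35 in HCT15. For single names, 87 values under the alternatives lay within the counting interval and 41 outside it. The miR-4508 ratio in HT29 ran from 2.87 to 6.99 with the prior count, and that of miR-1290 in HCT15 from 1.40 to 2.82. In HCT15, 4% of names were 2-fold higher and 2% lower at 50 CPM, and 5.5% and 21.6% among names with any read, in place of 8.92% and 5.85%. Dropping the 10 most abundant names from the total gave 27 higher and 91 lower names in HT29 and 21 and 33 in HCT15, and DESeq2 size factors gave 37 and 10 in HCT15. TMM on the line alone gave 59 and 53 in HT29, and a prior count of 10 gave 26 and 11 in HCT15. Length-corrected reads were added after the data were seen. Counting depth limits miR-1290 in HCT15 and miR-4449 and miR-4508 in HT29.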
